A study of Gallus gallus with 6 samples.

Results

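The cytosolic and mitochondrial heat shock genes described here were the entries of the deposited liver table named HSP90AA1, HSP90AB1, HSPH1, HSPA8, HSPA4, DNAJA1, HSPD1, HSPE1, HSPA9 or HSF1. The 10 names matched 11 of the 14078 entries, since HSPE1 was listed 2 times. Livers came from 6 caged female Lushi chickens, 3 of them juvenile and 20 weeks old (L20) and the other 3 in lay and 30 weeks old (L30), with 1 RNA-Seq library each. The groups differed in age and laying stage together, so the effects of these cannot be told apart, and no agent or mutation was applied to any hen. The comparison asked which liver genes change between the juvenile and the laying stage.

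Heat shock proteins are molecular chaperones that bind unfolded or partly folded proteins and use ATP to help them reach or keep their folded state. In the cytosol, J-domain proteins hand clients to HSP70, HSP110-type exchange factors reset it, and HSP90 takes over clients such as steroid hormone receptors and kinases. Mitochondrial HSP70 pulls imported proteins into the matrix, where the HSP60 and HSP10 chaperonin folds them. In mammals, the heat shock factor HSF1 switches on many of these genes under heat or other stress.

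The deposited values were FPKM, a fragment count divided by the length of the gene's exons and by the size of the library. Such values can be compared between genes only as far as the exon lengths used are right. In the library sizes read from the scaled counts of the same table, the 6 libraries held about 13764705 to 21570328 reads on genes, and the median FPKM of a gene lay between 2.97 and 3.32. The labelled tissue and stages were checked on marker genes. The 8 hepatocyte markers found in the table summed to 39940 to 46100 FPKM in L20 and 24410 to 37220 FPKM in L30, and the 4 yolk precursor genes summed to 141 to 400 FPKM in L20 and 42560 to 58910 FPKM in L30. The lower hepatocyte sum in L30 lay in the fibrinogen chains FGA, FGB and FGG, whose ratios of mean FPKM were 0.379, 0.403 and 0.386, while that of ALB was 1.99. The 7 macrophage markers found summed to 994 to 1148 FPKM in L20 and 631 to 795 FPKM in L30. For the 5 endothelial markers found, the sums were 50.9 to 67.0 FPKM and 32.3 to 47.9 FPKM. The sums of lymphocyte, stellate cell and bile duct markers overlapped between the groups. The part of cell content in the values below was not tested.

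L20 hen 2 stood apart from the other hens in these genes. It had the highest FPKM of the 6 hens in 8 of the 11 entries, whereas it was the highest hen in 24.9% of all genes tested. Among the L30 hens, hen 1 was highest in 9 of the 11 entries, against 30.1% of all genes tested. These 2 hens also had the deepest libraries, with 21446468 reads on genes in L20 hen 2 and 21570328 in L30 hen 1, against 13764705 to 17102646 in the other 4. The red blood cell marker genes also summed highest in these 2 hens, and lowest in L20 hen 3. The 5 of 10 erythroid markers found in the table summed to 71.0, 158 and 38.2 FPKM in L20 hens 1, 2 and 3 and to 130, 62.8 and 56.4 FPKM in L30 hens 1, 2 and 3. The embryonic globin gene HBE was at 0 FPKM in 4 of the 6 hens. The part of depth and of red blood cells in the values below was not tested, and the comparisons of the heat shock entries are given with and without L20 hen 2.

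No heat shock gene passed the test between L20 and L30. Of the 11 entries, 0 reached an unadjusted limma p of 0.05 on log2(FPKM + 1), against 22.7% of the 9732 genes tested (11.0% higher and 11.7% lower in L30). Likewise, 0 met the rule for significantly differentially expressed (SDE) genes, an adjusted p of 0.05 or less with a change in mean FPKM to 2 times or more or to 0.5 times or less, which 2.75% of all genes tested met. All 11 entries had a mean of at least 1 FPKM over the 6 hens and were therefore tested. Their median log2 fold change was -0.18, beside -0.04 over all genes tested, and the mean log2 value was lower in L30 for 9 of the 11, against 54.7% of all genes. Without L20 hen 2 the median was 0.08, beside -0.01 over all genes, and the mean was lower in L30 for 3 of the 11, against 51.5%. The number with p of 0.05 or less was again 0, against 19.4% of all genes. L20 hen 2 was singled out by its high values in these same entries. Leaving out the highest L20 hen of an entry can only raise its log2 fold change, so the upward shift is no separate result. In bulk liver, fewer cells of a type and less RNA per cell cannot be told apart.

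**Figure D1:**
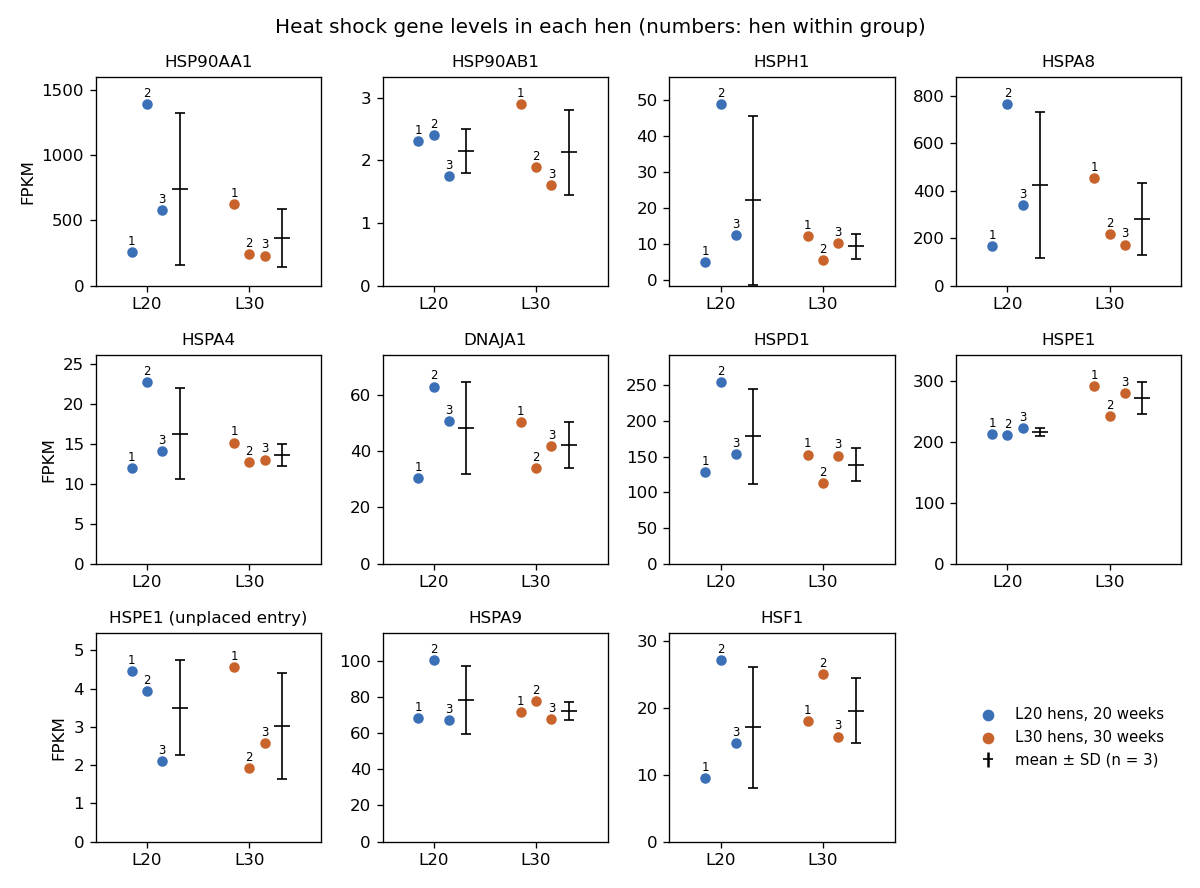
FPKM of the 11 heat shock entries (vertical axes, linear, 1 panel per entry) in each L20 hen (blue) and L30 hen (orange), with the hen number at each point and the mean ± SD of the 3 hens as black bars. L20 hen 2 is the highest point in 8 of the 11 panels, and in the panel of HSPE1 on chromosome 7 every L30 hen lies above every L20 hen.

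Within a group the levels of several entries ranged widely. The highest L20 hen was at least 2 times the lowest L20 hen in 6 of the 11 entries, against 14.2% of all genes tested, and the corresponding count in L30 was 4 of the 11, against 17.1%. In mean FPKM over the 6 hens the order was HSP90AA1, HSPA8, HSPE1, HSPD1, HSPA9, DNAJA1, HSF1, HSPH1, HSPA4, the unplaced entry of HSPE1 and HSP90AB1. The ranges over the hens overlapped between neighbours among the first 4 of this order, among HSF1, HSPH1 and HSPA4, and between the last pair. No overlap was seen between HSPD1 and HSPA9, HSPA9 and DNAJA1, DNAJA1 and HSF1, or HSPA4 and the unplaced entry of HSPE1.

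HSP90AA1 encodes the stress-inducible cytosolic HSP90 and lies on chromosome 5 (49388165 to 49393962 in galGal4). Its level was 257, 1392 and 579 FPKM in L20 hens 1, 2 and 3 and 624, 238 and 229 FPKM in L30 hens 1, 2 and 3. The highest L20 hen was thus 5.42 times the lowest and the highest L30 hen 2.72 times the lowest, and the groups overlapped. Ranked by FPKM among all entries, HSP90AA1 stood between place 51 in L20 hen 2 and place 285 in L30 hen 2. Mean levels were 742 ± 585 FPKM in L20 and 364 ± 225 FPKM in L30 (SD, n = 3 each). The log2 fold change was -0.87 ± 0.69 (SE), with a limma adjusted p of 0.493, and its 95% interval reached from 0.174-fold to 1.73-fold. Without L20 hen 2 the log2 fold change was -0.25 ± 0.58 and the ratio of means was 0.871.

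HSP90AB1 is known in mammals as the constitutive cytosolic HSP90. The entry, on chromosome 3 (29630921 to 29636756), read 2.31, 2.40 and 1.75 FPKM in the L20 hens and 2.90, 1.89 and 1.604 FPKM in the L30 hens, from 94 to 260 reads per hen. This was the lowest mean of the 11 entries, and L30 hens 1 and 3 held the highest and the lowest value of the 6. The log2 fold change was -0.03 ± 0.18 (limma, adjusted p = 0.946), with a 95% interval from 0.721-fold to 1.34-fold. The sign of so small a value turned under 6 of the alternatives given in the closing section. This 95% interval is of FPKM + 1, so at a mean of 2.143 FPKM it is too narrow as a fold of FPKM.

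Inside each hen, HSP90AA1 exceeded HSP90AB1 by 111, 580 and 330 times in the L20 hens and by 215, 126 and 143 times in the L30 hens. The ratio was highest in L20 hen 2 and lowest in L20 hen 1, so both extremes lay in the juvenile group. The mean log2 ratio was lower in L30 by a difference of -0.82 (exact permutation test, two-sided, p = 0.4, where the smallest p that 3 hens against 3 allow is 0.1). Without L20 hen 2 the difference was -0.28.

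HSPA8 encodes the constitutive cytosolic HSP70 (HSC70) and lies on chromosome 24 (3069115 to 3075912). It read 166, 765 and 339 FPKM in the L20 hens and 455, 218 and 173 FPKM in the L30 hens. The hens stood nearly in the order seen for HSP90AA1, with L20 hen 2 highest and L30 hen 1 next, and HSPA8 was the member closest to HSP90AA1 in pattern (Pearson r = 0.977 of log2(FPKM + 1) over the 6 hens). Its log2 fold change was -0.44 ± 0.62 (limma, adjusted p = 0.706, 95% interval 0.262-fold to 2.07-fold). Without L20 hen 2 it was 0.12 ± 0.52.

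HSPH1 and HSPA4 encode HSP110-type proteins, which exchange the nucleotide on HSP70. HSPH1 (chromosome 1, 174262981 to 174286406) read 4.998, 48.9 and 12.4 FPKM in the L20 hens and 12.2, 5.53 and 10.2 FPKM in the L30 hens. L20 hen 2 had 3.93 times the level of the next hen, and the 9.78-fold range inside L20 was the widest of the 11 entries in either group. Its log2 fold change was -0.69 ± 0.75 (limma, adjusted p = 0.628, 95% interval 0.176-fold to 2.20-fold), and 0.14 ± 0.45 without L20 hen 2.

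HSPA4 (chromosome 13, 16530628 to 16547788) varied far less, with 12.0, 22.7 and 14.1 FPKM in the L20 hens and 15.2, 12.7 and 13.1 FPKM in the L30 hens. L20 hen 2 was again the highest, at 1.497 times the next hen. For HSPA4 the log2 fold change was -0.19 ± 0.24 (limma, adjusted p = 0.666) and 0.06 ± 0.14 without L20 hen 2. The HSPH1 to HSPA4 ratio was 0.416, 2.15 and 0.881 in the L20 hens and 0.802, 0.435 and 0.781 in the L30 hens. Only in L20 hen 2 was HSPH1 the more abundant of the pair. The groups overlapped in this ratio, and the difference in mean log2 ratio was -0.51 (exact permutation test, two-sided, p = 0.5). It turned to 0.10 without L20 hen 2.

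DNAJA1 encodes an HSP40 co-chaperone whose J domain stimulates the ATPase of HSP70, and lies on chromosome Z (70417888 to 70424546). It read 30.6, 63.0 and 50.8 FPKM in the L20 hens and 50.4, 34.0 and 42.0 FPKM in the L30 hens. All 3 L30 hens lay inside the range of the L20 hens. Between groups DNAJA1 had a log2 fold change of -0.15 ± 0.29 (limma, adjusted p = 0.797) and 0.08 ± 0.28 without L20 hen 2.

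HSPD1 encodes the mitochondrial chaperonin HSP60 and HSPE1 its lid-forming partner HSP10, and in mammals the genes lie head to head. In galGal4 they were neighbours on chromosome 7, HSPD1 at 9720879 to 9729711 and HSPE1 at 9732776 to 9734998, with 3064 bp between them. HSPD1 read 128, 254 and 154 FPKM in the L20 hens and 153, 112 and 151 FPKM in the L30 hens. L20 hen 2 was the highest and L30 hen 2 the lowest, and the groups overlapped. The log2 fold change of HSPD1 was -0.31 ± 0.29 (limma, adjusted p = 0.559) and -0.03 ± 0.21 without L20 hen 2.

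HSPE1 did not follow this order of hens. It read 213, 212 and 223 FPKM in the L20 hens and 292, 243 and 281 FPKM in the L30 hens, from 878 to 1886 reads per hen. The L20 hens lay within 1.06-fold of each other, L20 hen 2 was the lowest of all 6, and every L30 hen lay above every L20 hen. HSPE1 was the only 1 of the 11 entries whose groups did not overlap. Such a separation was seen in 30.0% of all genes tested, and in this direction in 14.0%, so 1 of 11 was below the share of all genes. The ratio of mean FPKM was 1.26, from 216 ± 6.56 FPKM in L20 to 272 ± 25.8 FPKM in L30 (SD, n = 3 each).

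The log2 fold change of HSPE1 was 0.33 ± 0.15, with an unadjusted limma p of 0.0627 and an adjusted p of 0.244, and its 95% interval ran from 0.984-fold to 1.602-fold. The exact permutation test (two-sided) gave 0.1, the smallest p it can reach. Without L20 hen 2 the log2 fold change was 0.31 ± 0.17. The unadjusted p was 0.0458 without L30 hen 2, where the log2 fold change was 0.41, and under quantile normalization the log2 fold change was -0.0002. The adjusted p stayed at 0.171 or more over all 17 alternatives.

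A second entry named HSPE1 lay on the unplaced contig AADN03014133.1 (578 to 1536). It read 4.46, 3.95 and 2.11 FPKM in the L20 hens and 4.58, 1.92 and 2.58 FPKM in the L30 hens, and these values rested on only 4 to 17 reads per hen. The groups overlapped, with a log2 fold change of -0.18 ± 0.31 (limma, adjusted p = 0.769), or -0.09 ± 0.37 without L20 hen 2. Since both entries carry the same name, reads may have been split between them, and the values of either are uncertain to that extent.

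The HSPD1 to HSPE1 ratio on chromosome 7 was 0.602, 1.20 and 0.688 in the L20 hens and 0.523, 0.463 and 0.539 in the L30 hens. HSPD1 exceeded HSPE1 only in L20 hen 2, and every L30 hen lay below every L20 hen. The difference in mean log2 ratio was -0.64 (p = 0.1 by the two-sided exact permutation test over hens, its lowest value). The groups did not overlap without L20 hen 2 either, where the difference was -0.34. Because HSPE1 alone already separated the groups, the ratio is not an independent result. How often other gene pairs separate was not measured.

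**Figure D2:**
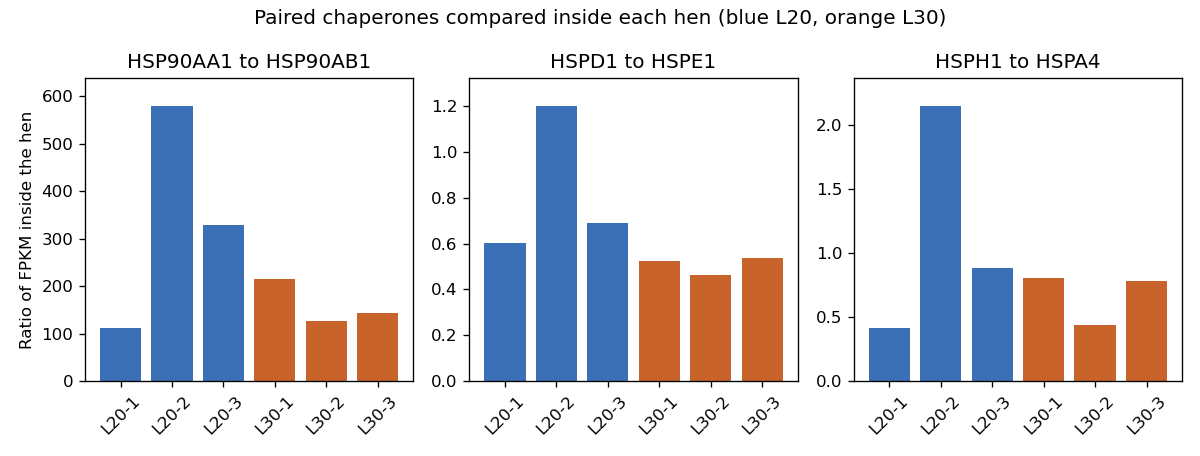
Ratio of the FPKM of 2 partner genes (vertical axes, linear from 0) inside each L20 hen (blue bars) and L30 hen (orange bars). L20 hen 2 has the highest bar in all 3 panels, and only for HSPD1 to HSPE1 do all L30 bars, at 0.463 to 0.539, lie below all L20 bars, at 0.602 to 1.20.

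HSPA9 encodes mortalin, the mitochondrial HSP70, and lies on chromosome 13 (2134784 to 2156387). It read 68.2, 100 and 67.0 FPKM in the L20 hens and 71.5, 77.5 and 67.8 FPKM in the L30 hens. Apart from L20 hen 2, the hens lay between 67.0 and 77.5 FPKM, and the groups overlapped. HSPA9 had a log2 fold change of -0.09 ± 0.19 (limma, adjusted p = 0.804) and 0.09 ± 0.14 without L20 hen 2.

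HSF1 encodes a transcription factor that binds heat shock elements in the promoters of chaperone genes. Its entry lay on the unplaced contig AADN03017958.1 (2585 to 5968) and rested on 39 to 141 reads per hen. It read 9.41, 27.0 and 14.7 FPKM in the L20 hens and 17.95, 25.0 and 15.7 FPKM in the L30 hens. L20 hen 2 was the highest by 1.08 times over L30 hen 2, and L20 hen 1 was the lowest. HSF1 had a log2 fold change of 0.28 ± 0.38 (limma, adjusted p = 0.693, 95% interval 0.647-fold to 2.28-fold).

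Without L20 hen 2, every L30 hen was above both remaining L20 hens in HSF1, and its log2 fold change was 0.66 ± 0.27 (limma, adjusted p = 0.276). Without L20 hen 1 it was -0.05. With L20 hen 2 left out, 2 of the 11 entries, HSPE1 and HSF1, had groups that did not overlap, against 40.1% of all genes tested in the same 5 hens.

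**Figure D3:**
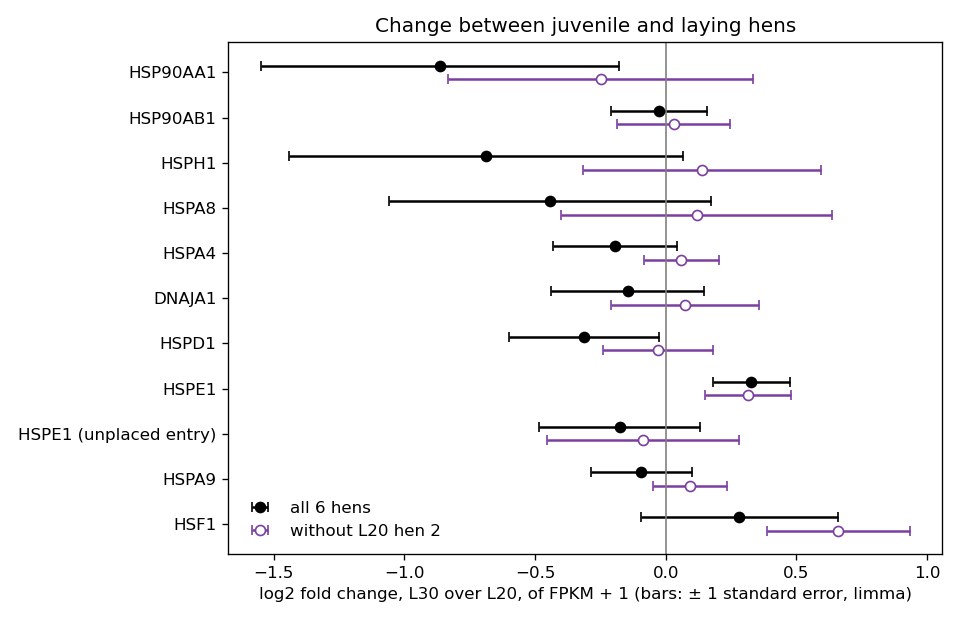
log2 fold change of FPKM + 1 (horizontal axis, L30 over L20, bars ± 1 SE from limma) for each heat shock entry, with all 6 hens (filled black) and without L20 hen 2 (open purple). The estimate for HSP90AA1 moves from -0.87 to -0.25 and that for HSPH1 from -0.69 to 0.14, while HSPE1 stays at 0.33 and 0.31.

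In likeness to HSP90AA1 over the 6 hens, Pearson r of log2(FPKM + 1) was 0.977 for HSPA8, 0.927 for HSPA4, 0.908 for HSPH1, 0.902 for DNAJA1 and 0.876 for HSPD1. It was 0.684 for HSPA9, 0.503 for HSP90AB1, 0.465 for HSF1, 0.373 for the unplaced entry of HSPE1 and -0.276 for HSPE1 on chromosome 7. These are descriptions over 6 libraries that differ in depth, with 1 hen far from the rest. Among 5348 named genes with a mean of at least 5 FPKM, the 5 most like HSP90AA1 were NUDC (r = 0.984), a co-chaperone of HSP90, SPTAN1 (0.978), the alpha chain of non-erythroid spectrin, SNRPD1 (0.977), a core protein of the spliceosome, HSPA8 (0.977) and CCT4 (0.976), a subunit of the cytosolic chaperonin. NUDC read 25.4, 35.8 and 30.3 FPKM in the L20 hens and 29.4, 24.6 and 25.9 FPKM in the L30 hens, a much narrower range than that of HSP90AA1.

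The 5 genes most like HSPD1 were ATP1B3 (r = 0.994), a subunit of the sodium pump, SPRED1 (0.992), PMPCA (0.989), a subunit of the peptidase that trims imported mitochondrial proteins, QARS (0.986), a glutaminyl-tRNA synthetase, and PCBP2 (0.983), an RNA-binding protein. ATP1B3 read 7.93, 19.4 and 10.9 FPKM in the L20 hens and 9.52, 6.41 and 9.66 FPKM in the L30 hens. HSPE1 was not among the 5.

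Together the 11 entries took 0.126%, 0.458% and 0.252% of the summed FPKM of L20 hens 1, 2 and 3 and 0.240%, 0.129% and 0.169% of that of L30 hens 1, 2 and 3. The share was highest in L20 hen 2 and lowest in L20 hen 1. Means were 0.279 ± 0.168% in L20 and 0.179 ± 0.0563% in L30 (SD, n = 3 each; exact permutation test, two-sided, p = 0.5). The difference in means was -0.0995 percentage points, and -0.0098 percentage points without L20 hen 2. With the genes of chromosome MT left out of the sum, L20 hen 2 was still highest. The lowest was then L30 hen 2, at 0.210%, against 0.260% in L20 hen 1. The difference in means was -0.145 percentage points in that sum. It was -0.105 percentage points with the yolk precursor genes APOVLDLII, VTG2 and TPRXL left out as well. As a share of reads on genes they took 0.343%, 1.18% and 0.588% in the L20 hens and 0.604%, 0.268% and 0.280% in the L30 hens, in which L20 hen 2 and L30 hen 1 were again the highest of their groups.

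The other genes of the chaperone network were taken from 9 lists of 103 names, of which 82 were in the table and 73 were tested. Of these, 7 had an unadjusted limma p of 0.05 or less (called genes hereafter), 5 higher and 2 lower in L30, against 22.7% of all genes tested, and 2 of the 7 had an adjusted p of 0.05 or less. Their median log2 fold change was -0.09. L20 hen 2 was the highest hen in 44 of the 73, against 24.9% of all genes tested. Without that hen, 7 again had an unadjusted limma p of 0.05 or less, against 19.4% of all genes. The median was then 0.10, and neither of the adjusted calls held.

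Among relatives of HSP70 and HSP110, 1 of 4 tested genes was called, against 22.7% of all genes tested. HSPA14, a ribosome-associated HSP70, was lower in L30 (log2 fold change -0.41 ± 0.10, limma, adjusted p = 0.0824). The entry named HSP70 is the inducible cytosolic form. It read 69.7, 775 and 111 FPKM in the L20 hens and 172, 30.5 and 35.2 FPKM in the L30 hens. Its 25.4-fold range over all 6 hens, but not that inside a group, was the widest of the chaperone genes described here. Its hens stood in an order close to that of HSP90AA1 and HSPA8, and its log2 fold change was -1.65 ± 1.06 (limma, adjusted p = 0.398), or -0.61 ± 0.80 without L20 hen 2. Neither of the 2 tested small heat shock proteins was called. HSPB8 read 0.595, 7.18 and 1.26 FPKM in the L20 hens and 5.85, 0.367 and 0.724 FPKM in the L30 hens, so L20 hen 2 and L30 hen 1 were the highest of their groups here too, and its log2 fold change turned from -0.29 ± 0.82 to 0.41 ± 0.73 without L20 hen 2.

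Of 9 tested J-domain proteins, 2 were called, near the share of 22.7% of all genes tested, and both were higher in L30. DNAJB5 read 0.419, 0.612 and 0.381 FPKM in the L20 hens and 5.52, 2.31 and 1.07 FPKM in the L30 hens (log2 fold change 1.27 ± 0.40, limma, adjusted p = 0.133). Its mean was 0.471 FPKM in L20 and 2.965 FPKM in L30, so it passed the filter of 1 FPKM only through the L30 hens. With no filter on low values it was called too. DNAJB14, anchored in the membrane of the endoplasmic reticulum, had a log2 fold change of 0.32 ± 0.13 (limma, adjusted p = 0.204). DNAJA4, a close relative of DNAJA1, was not called and read 15.7, 142 and 27.5 FPKM in the L20 hens and 50.1, 20.2 and 16.1 FPKM in the L30 hens, with the same pair of hens on top as in HSP90AA1. Its log2 fold change was -0.62 ± 0.84, and 0.28 ± 0.53 without L20 hen 2. DNAJA2 had the highest mean of the list and was not called (log2 fold change 0.29 ± 0.19, limma, adjusted p = 0.410). It read 60.39, 41.68 and 60.72 FPKM in the L20 hens and 60.74, 71.79 and 64.55 FPKM in the L30 hens. L20 hen 2 was thus its lowest hen, and every L30 hen lay above every L20 hen, as in 14.0% of all genes tested. Over the list, L20 hen 2 was the highest hen in 5 of the 9, against 24.9% of all genes tested. Without L30 hen 1 the mean of DNAJB5 fell below 1 FPKM, so DNAJB5 was not tested in those hens. The call of DNAJB14 was lost without L20 hen 1, L20 hen 3, L30 hen 2 or L30 hen 3 and under upper-quartile scaling and quantile normalization.

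Of 19 tested co-chaperones of HSP70 and HSP90, 2 were called higher and 1 lower, against 11.0% and 11.7% of all genes tested. PPID, the cyclophilin that binds HSP90, rose from 21.8, 18.8 and 18.8 FPKM in the L20 hens to 37.3, 34.0 and 32.8 FPKM in the L30 hens (log2 fold change 0.78 ± 0.13, limma, adjusted p = 0.0354). FKBP8, an immunophilin of the outer mitochondrial membrane, had a log2 fold change of 0.71 ± 0.17 (limma, adjusted p = 0.0762), and BAG5, a BAG-domain partner of HSP70, one of -0.43 ± 0.15 (limma, adjusted p = 0.161). The call of BAG5 was lost without L20 hen 1, L20 hen 3, L30 hen 1 or L30 hen 3, and those of PPID and FKBP8 held at an unadjusted p of 0.05 or less in all 17 alternatives. The adjusted p of PPID was above 0.05 when any hen but L30 hen 3 was left out, with values from 0.0469 to 0.150, and was 0.105 without L20 hen 2. BAG3, a stress-inducible partner of HSP70 named here after its values were seen, read 5.94, 109 and 12.8 FPKM in the L20 hens and 13.1, 4.86 and 8.74 FPKM in the L30 hens. Its log2 fold change was -1.24 ± 1.00 (limma, adjusted p = 0.4997), and -0.08 ± 0.47 without L20 hen 2. The range inside L20 was 18.3-fold for BAG3, against 1.83-, 1.87-, 2.44- and 2.44-fold for ST13, FKBP4, AHSA1 and SUGT1. These 4 had the highest mean FPKM of the uncalled genes in the list, and L20 hen 2 was their highest hen. Their log2 fold changes were -0.03, 0.01, -0.18 and -0.20.

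Of 15 tested mitochondrial chaperones, import proteins and proteases, 1 was called, against 22.7% of all genes tested. YME1L1, a protease of the inner membrane, rose from 46.1, 57.7 and 55.2 FPKM in the L20 hens to 96.9, 110 and 97.9 FPKM in the L30 hens (log2 fold change 0.93 ± 0.15, limma, adjusted p = 0.0346). Its adjusted p was above 0.05 whichever hen was left out, from 0.05004 to 0.134, and 0.0794 without L20 hen 2. The rest of this list, like HSPD1 and HSPA9, did not pass the test, which does not show that the levels were equal. None of the 6 CCT subunits, 4 prefoldin subunits or 3 entries for other heat shock factors and their binding protein was called. HSF2 and HSF3, the other heat shock factors tested, had values of 4.26, 3.34 and 3.63 FPKM and of 4.64, 3.55 and 4.73 FPKM in the L20 hens, and of 4.65, 5.15 and 4.36 FPKM and of 5.31, 5.66 and 5.26 FPKM in the L30 hens. In both, every L30 hen lay above every L20 hen, as in 14.0% of all genes tested, with log2 fold changes of 0.27 ± 0.12 and 0.28 ± 0.13 (limma, adjusted p = 0.240 for HSF2 and adjusted p = 0.247 for HSF3). Both had an unadjusted p of 0.05 or less under median-ratio scaling and quantile normalization, and HSF2 also without L20 hen 1. With L20 hen 2 left out, the log2 fold changes were 0.21 ± 0.13 for HSF2 and 0.17 ± 0.10 for HSF3. HSBP1, which had the highest mean of that list, read 23.1, 30.8 and 34.6 FPKM in the L20 hens and 27.9, 26.8 and 25.6 FPKM in the L30 hens. Its groups overlapped, with a log2 fold change of -0.12 ± 0.17 (limma, adjusted p = 0.720).

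**Figure D4:**
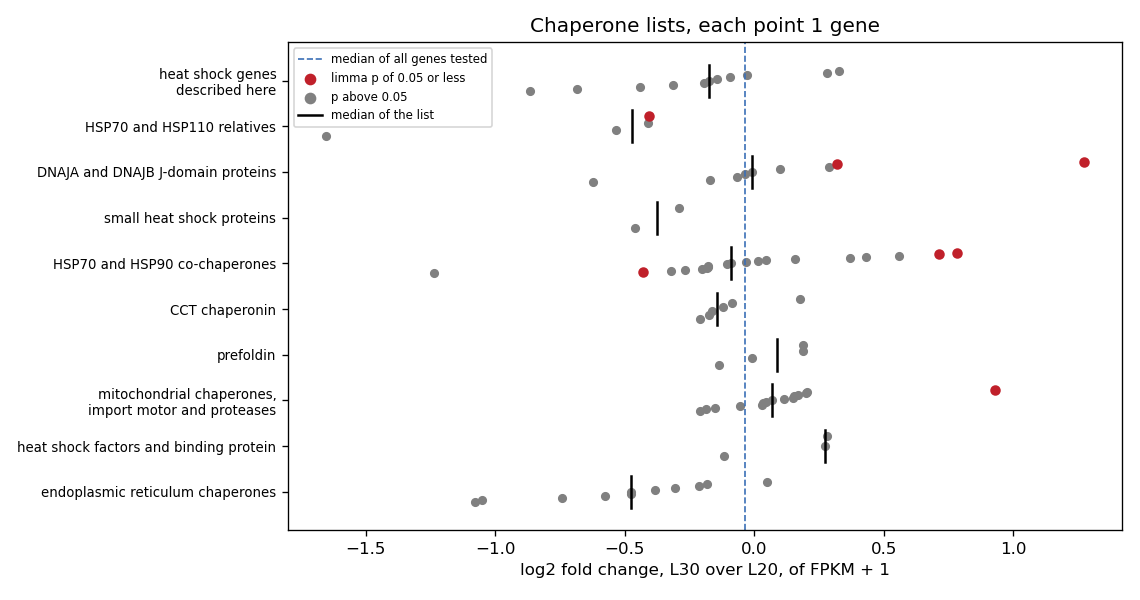
log2 fold change of FPKM + 1 (horizontal axis, L30 over L20) for the heat shock entries and each chaperone list, 1 point per gene, in red where the limma p was 0.05 or less, with list medians as black lines and the median of all genes tested, -0.04, as a dashed line. No heat shock entry of the top line is red, and 7 of the 73 genes in the lists are.

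The chaperones of the endoplasmic reticulum shared the high value of L20 hen 2 with the cytosolic genes but not the order of the L30 hens. L20 hen 2 was the highest hen in all 11 of 11 tested, against 24.9% of all genes tested. Among the L30 hens, hen 3 was highest in 11 of these 11, against 34.8% of all genes tested, whereas hen 3 was highest in 0 of the 11 heat shock entries. HSPA5 (BiP), the HSP70 of that compartment, read 440, 2455 and 968 FPKM in the L20 hens and 474, 311 and 755 FPKM in the L30 hens (log2 fold change -1.08 ± 0.65, limma, adjusted p = 0.375), or -0.44 ± 0.50 without L20 hen 2. HSP90B1, its HSP90, had a log2 fold change of -1.05 ± 0.51 (limma, adjusted p = 0.275), or -0.63 ± 0.46 without L20 hen 2. CALR, with the highest mean of the list, had one of -0.48 ± 0.38 (limma, adjusted p = 0.494), or -0.15 ± 0.33 without L20 hen 2. The list had 0 of 11 genes called by limma, against 22.7% of all genes tested. Its median log2 fold change was -0.48, or -0.15 without L20 hen 2. Without L20 hen 1, HSPA5, HSP90B1 and PDIA6, a protein disulfide isomerase named here after its values were seen, were lower in L30 at an unadjusted p of 0.05 or less, and HSP90B1 and PDIA6 also without L30 hen 3 and under quantile normalization.

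**Figure D5:**
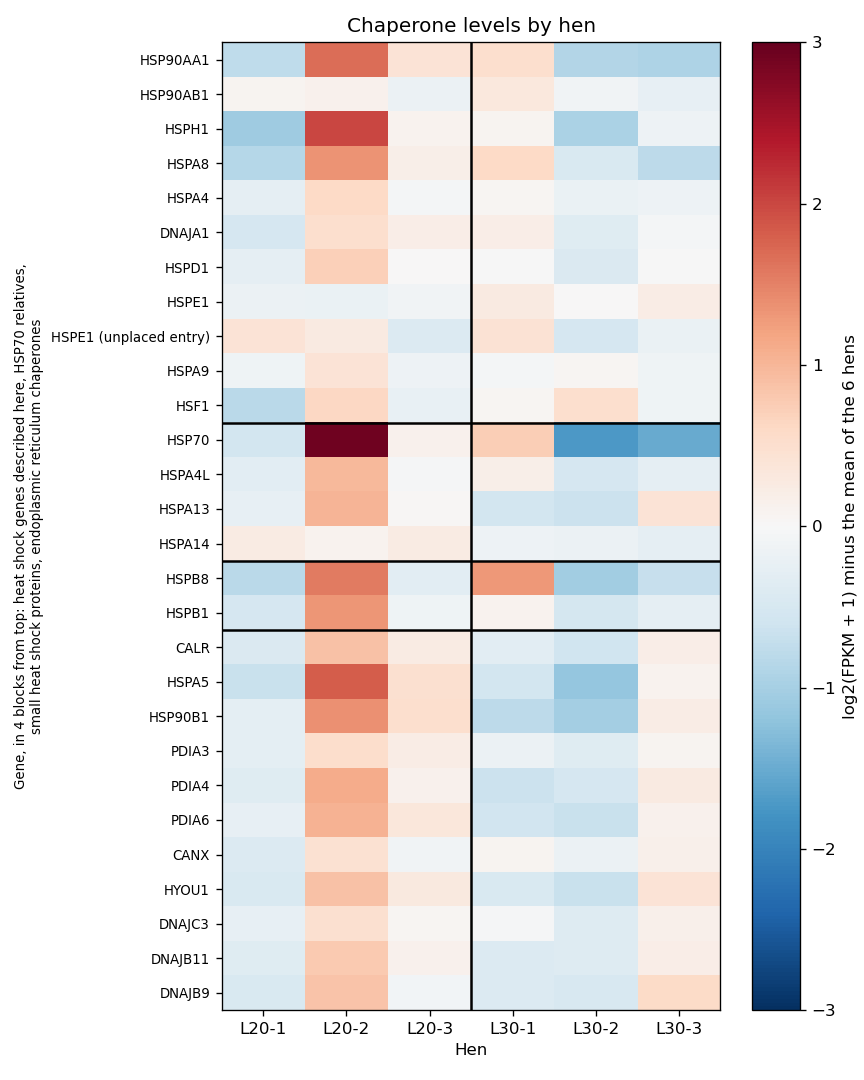
Heat map of log2(FPKM + 1) minus the mean of the 6 hens (color scale) for the heat shock entries, HSP70 relatives, small heat shock proteins and endoplasmic reticulum chaperones (blocks from top to bottom) in each hen (columns, L20 left and L30 right of the black line). The column of L20 hen 2 is red in most lines, the reddest L30 column is mostly hen 1 in the upper blocks and hen 3 in the endoplasmic reticulum block, and HSPE1 on chromosome 7 is above its mean in the L30 hens only.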

How the data were processed

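Liver RNA of 3 L20 and 3 L30 hens was sequenced paired-end in 1 library each. Reads were mapped by the authors to galGal4 with TopHat2 2.0.9, and FPKM values were deposited for every gene in every hen. The authors also deposited scaled counts, a signal equal to reads divided by 1 factor per library. At least 99.8% of the values below 200 reads were whole within 0.02 reads, but in 3 libraries 1 or 2 values lay below 1 read, so no count test was run and reads are approximate.

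Genes with a mean of at least 1 FPKM were tested with limma 3.58.1 (R 4.3.3) on log2(FPKM + 1), trend in eBayes, two-sided, with Benjamini-Hochberg adjustment over 9732 genes. This scale understates the change of low genes. Ratios and shares had exact permutation tests. The script was tested on simulated data. Members and lists were chosen with earlier results of these data known. Besides the members, the text names from each list the genes with p of 0.05 or less. From some lists it also names up to 4 more by mean FPKM, though not always all of them. None was named by mean FPKM from the CCT, prefoldin and mitochondrial lists. The 5 genes most like HSP90AA1 and the 5 most like HSPD1 are named too. Alternatives changed the pseudocount, filter, scaling, variance model, unit and hens. FPKM spreads the reads of a short gene such as HSPE1 over few bases, so its value rests on fewer reads than that of a longer gene.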

Additional observations from a re-analysis of the deposited data

How the results depend on the processing

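Over 17 alternatives the 11 heat shock entries met the SDE rule in 0 cases, and 0 to 1 had a limma p of 0.05 or less. That 1 was HSPE1, with no filter on low values, median-ratio scaling, no trend in eBayes, log2(scaled count + 1), an alternative chosen after seeing the data, and without L30 hen 2. Its unadjusted p was at lowest 0.0302 and its adjusted p 0.171, and under quantile normalization its log2 fold change was -0.0002. The cause was not tested. Groups did not overlap in 2 entries under quantile normalization (HSPD1 and HSPA9, both lower in L30), with no share of all genes given. With 1 hen left out the count was 1 to 4. It was 4 without L20 hen 1 (HSPE1 higher, HSPD1, HSPH1 and DNAJA1 lower), against 40.9% of all genes. It was 2 without L20 hen 2 and without L30 hen 1 (HSPE1 and HSP90AA1), against 40.1%. None was above its share.

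Leaving out L20 hen 2 turned the sign of HSPA9 (0.0931), HSPA8 (0.12), HSPA4 (0.06), HSPH1 (0.14), DNAJA1 (0.0752) and HSP90AB1 (0.03), and of the HSPH1 to HSPA4 ratio (0.10, range -1.08 to 0.10 with 1 hen left out). In all of these L20 hen 2 was the highest L20 hen, so leaving it out could only raise the estimates. HSP90AB1 also turned under median-ratio scaling (0.0081) and quantile normalization (0.063) and without L20 hen 1 (0.01), L30 hen 2 (0.02) or L30 hen 3 (0.10). HSF1 turned without L20 hen 1 (-0.0544) and the unplaced HSPE1 entry without L30 hen 2 (0.028). With 1 hen left out, log2 fold changes ranged from -1.47 to -0.25 for HSP90AA1, -0.20 to 0.10 for HSP90AB1, -1.39 to 0.14 for HSPH1, -0.98 to 0.12 for HSPA8, -0.37 to 0.06 for HSPA4, -0.43 to 0.08 for DNAJA1, -0.52 to -0.03 for HSPD1, 0.27 to 0.41 for HSPE1, -0.44 to 0.03 for its unplaced entry, -0.19 to 0.09 for HSPA9 and -0.05 to 0.66 for HSF1. The log2 ratio differences ranged from -1.48 to -0.28 for HSP90AA1 to HSP90AB1 and from -0.84 to -0.34 for HSPD1 to HSPE1, and the share of summed FPKM from -0.176 to -0.0098 percentage points. The called genes of the chaperone lists numbered 11 of 73 under quantile normalization and 5 to 11 with 1 hen left out (11 without L20 hen 1, 5 without L20 hen 3). Of the list genes, 73 were tested in these fits, or 72 without L30 hen 1. Apart from the fit without L20 hen 2 (7, against 19.4%), the share of all genes called in these settings is not given here. The counts therefore cannot be read as a result about chaperones.

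Over all genes tested, the deviations of hens of the same number correlated weakly (r = 0.0166, 0.0117 and 0.0943). Those of hens of different numbers had r from -0.0744 to 0.0595. No clear pairing by number was seen, but this check cannot exclude a pairing that touched some genes. With the number as a replicate block, 0 heat shock entries and 5 list genes had a p of 0.05 or less. No share of all genes is given. BAG5 and DNAJB14 were not called, and the adjusted p was 0.105 for PPID and 0.103 for YME1L1. Under quantile normalization these were 0.06 and 0.0508. The planned edgeR and DESeq2 tests were not run, since whole reads were not recovered in 3 libraries. Scaling moved the median log2 fold change of all genes to 0.0044 (median ratio), -0.07 (upper quartile) and -0.03 (quantile). With 3 hens per group, the intervals of HSP90AA1, HSPH1, HSPA8 and HSPD1 allow more than a 2-fold decrease, and those of HSPH1, HSPA8 and HSF1 more than a 2-fold increase. These intervals are of FPKM + 1. They are too narrow as folds of FPKM for the low entries, HSP90AB1 and the unplaced HSPE1 (means of 2.143 and 3.265 FPKM).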
